A study of Rattus norvegicus with 3 samples.

Results

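Interferon-stimulated genes were examined as a set of 41 listed genes, of which 39 had at least 1 probe among 15924 named genes on the array. Members were found on the array by their listed symbols, with older aliases accepted. Probes for Xaf1 and Irf8 were not named here, so both were not analysed. Expression was measured in NR8383, an established rat alveolar macrophage line, after 24 h with CNT-1 or CNT-2, 2 kinds of single-wall carbon nanotubes described as free of impurities, or in a control. Both nanotubes were given at 0.1 mg/mL in working solutions made with 1 mg/mL bovine serum albumin. The control is named untreated in one label and albumin solvent in another, which leaves unclear whether its cells were given albumin. All 3 groups share this single line, no genotype or added interferon is named for any of them, and the sources used here do not say how the nanotubes differ.

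Interferons are secreted proteins that switch on a shared set of genes in responding cells. Type I interferons act through a factor that contains STAT2 and IRF9 and binds promoter elements called ISRE, whereas interferon gamma acts mainly at elements called GAS and through IRF1. Antiviral effectors are induced mostly by type I interferon. Guanylate-binding and immunity-related GTPases, the chemokines Cxcl9, Cxcl10 and Cxcl11, immunoproteasome subunits and peptide transporters respond strongly to interferon gamma. Lung macrophages use both programmes in defence against viruses and intracellular microbes.

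The deposited table held 1 column for each of CNT-1, CNT-2 and control, with each probe centred on an unstated baseline that equals no single column. Values are presumed to be log2, so 1 unit is 2-fold, higher values are read as more RNA, and they carry no expression level, so genes can be compared by their differences but not by abundance. With a single column for each group no test was possible, and "higher" and "lower" describe these columns only. The submitters mention an n of 4, but it is unclear what this counts and whether a column averages several arrays. A gene's difference is the mean over its probes, and the SD over probes, given where a gene had 2 or more, is technical. Of the 39 members 30 had 1 probe and 9 had several, making 49 probes in all. Fewer expressing cells and less RNA per cell cannot be told apart in such bulk samples. The alveolar macrophage label could not be checked by marker levels in values without levels. As differences, 1 of 13 measured macrophage markers was at least 2-fold higher and 3 were lower in CNT-2, against 10.1% and 6.56% of all genes. The markers' median was -0.10, against 0.04 for all genes, and they ranged from -2.56 for Fcgr1a to 3.37 for Cd14.

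In CNT-2 the interferon-stimulated genes split, with Usp18, Rsad2 and Oasl at least 2-fold higher than control and Cxcl10, Ifi47, Gbp5, Mx2, Oas1b and Ifi44 at least 2-fold lower. The count of 3 of 39 members higher compares with 10.1% of all genes, and the count of 6 lower compares with 6.56% of all genes. Of the members 71.8% lay below 0, against 46.4% of all genes, and their median difference was -0.39, against 0.04 for all genes. In CNT-1 no member was at least 2-fold higher, against 1.16% of all genes, and Oas1b was the 1 member at least 2-fold lower, against 2.15% of all genes. The CNT-1 median was -0.10, against -0.04 for all genes, with 69.2% of members and 57.7% of all genes below 0. Thus the CNT-1 members lay close to the background of the array, while in CNT-2 the lower side, at 15.4%, exceeded it and the higher side, at 7.69%, did not. Both comparisons use the same control column. Scaling moved the median of all genes in CNT-2 by over 0.1, to -0.40 with 75th percentile centring and to -0.18 with spike-in centring. The split of all genes past 2-fold in CNT-2 was 1616 higher and 1045 lower as deposited, 838 and 2297 with 75th percentile centring, 1139 and 1565 with spike-in centring, and 733 and 664 with quantile normalization. The gap between the members' median and that of all genes in CNT-2 was -0.43 as deposited, which centring a column cannot change, and -0.29 under quantile normalization.

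**Figure D1:**
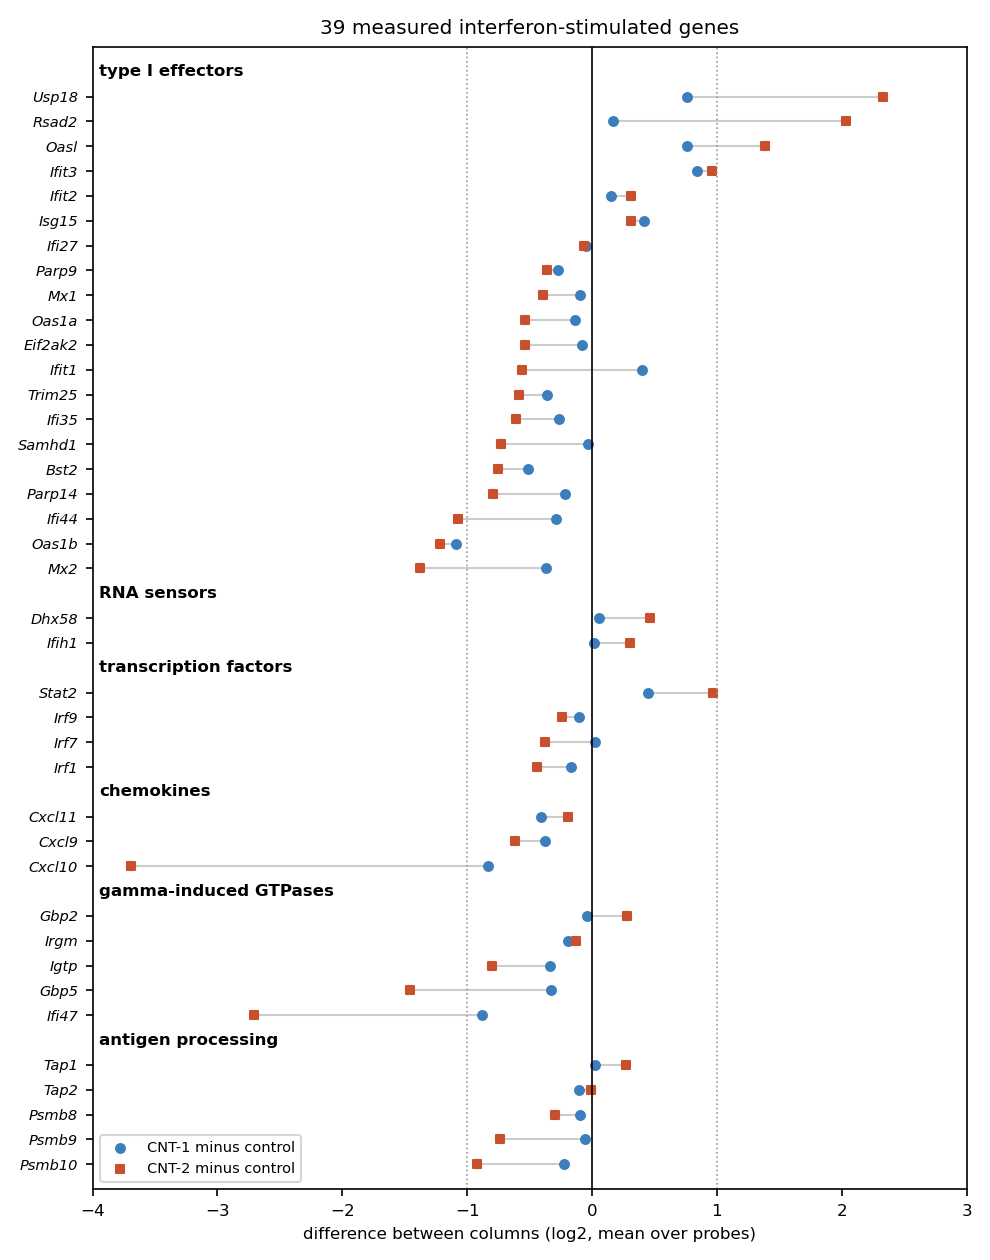
Difference from control (log2, horizontal axis) of each of the 39 measured members, by role and ordered within a role by CNT-2. Blue circles are CNT-1 minus control, red squares CNT-2 minus control, grey bars join the pair, and dotted lines mark 2-fold. In CNT-2 Usp18 lies farthest to the right at 2.33 and Cxcl10 farthest to the left at -3.70.

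The promoters of the members that lay farthest from control in CNT-2 are shown, because interferon responses are written in short elements near the transcript start. Sequences are from RefSeq, build GRCr8, from 250 bases before to 50 bases after the start, on the gene's strand. Capitals mark matches, on either strand, to an ISRE core GAAANNGAA, a GAS core TTCNNNGAA or an NF-kappaB core GGGANNTTC. Of the 41 listed members, 35 had a promoter in this table, the unmeasured Xaf1 and Irf8 among them. The 6 without one were Usp18, Isg15, Ifit2 and Dhx58, which lay above control in CNT-2, and Mx2 and Ifit1, which lay below. Usp18 was the member highest in CNT-2. The members highest after Usp18 were Rsad2 and Oasl, and the 3 lowest were Cxcl10, Ifi47 and Gbp5.
Rsad2, chr6:48788071-48788370, minus strand: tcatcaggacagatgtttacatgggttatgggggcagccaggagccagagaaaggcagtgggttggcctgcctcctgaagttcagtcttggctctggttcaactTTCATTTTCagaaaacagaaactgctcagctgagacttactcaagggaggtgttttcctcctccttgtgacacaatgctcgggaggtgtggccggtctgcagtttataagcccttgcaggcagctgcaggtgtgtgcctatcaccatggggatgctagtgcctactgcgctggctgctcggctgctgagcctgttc
Oasl, chr12:47356243-47356542, minus strand: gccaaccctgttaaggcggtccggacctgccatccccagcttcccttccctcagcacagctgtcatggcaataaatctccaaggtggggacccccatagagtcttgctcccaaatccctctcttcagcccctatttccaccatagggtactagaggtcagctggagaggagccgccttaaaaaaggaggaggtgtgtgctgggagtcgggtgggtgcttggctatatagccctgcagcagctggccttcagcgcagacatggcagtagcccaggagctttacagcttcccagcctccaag
Cxcl10, chr14:15988816-15989115, plus strand: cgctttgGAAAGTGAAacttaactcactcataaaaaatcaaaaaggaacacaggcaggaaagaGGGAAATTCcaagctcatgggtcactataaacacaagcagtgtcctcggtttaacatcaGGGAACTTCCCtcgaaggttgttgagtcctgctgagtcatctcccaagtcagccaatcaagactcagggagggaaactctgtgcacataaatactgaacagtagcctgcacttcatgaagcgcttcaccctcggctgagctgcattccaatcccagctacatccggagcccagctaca
Ifi47, chr10:33798494-33798793, plus strand: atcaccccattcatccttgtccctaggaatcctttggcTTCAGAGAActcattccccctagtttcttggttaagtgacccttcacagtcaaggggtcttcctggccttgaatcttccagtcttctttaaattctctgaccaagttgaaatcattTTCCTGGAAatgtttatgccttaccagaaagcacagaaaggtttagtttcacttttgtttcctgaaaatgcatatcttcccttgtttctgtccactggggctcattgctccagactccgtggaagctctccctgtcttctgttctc
Gbp5, chr2:233910749-233911048, plus strand: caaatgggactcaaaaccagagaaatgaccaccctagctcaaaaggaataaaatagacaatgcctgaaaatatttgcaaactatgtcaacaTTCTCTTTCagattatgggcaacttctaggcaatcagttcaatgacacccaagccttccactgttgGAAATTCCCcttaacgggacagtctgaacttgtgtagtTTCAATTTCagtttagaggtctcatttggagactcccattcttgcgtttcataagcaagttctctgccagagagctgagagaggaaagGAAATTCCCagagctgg

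In Rsad2 the capitals mark 1 ISRE match on the reverse strand, beginning at position -146 from the start, and Oasl had no match to any of the 3 motifs in this window. Cxcl10 held 1 ISRE match and 3 NF-kappaB matches, of which the last 2 overlap on opposite strands. Ifi47 held 2 GAS matches and Gbp5 held 2 ISRE and 2 NF-kappaB matches. Over the 35 member promoters, 21 held the ISRE core, or 60.0%, against 9.50% of all 27457 promoters in the table. A GAS core was found in 14 member promoters, or 40.0%, against 8.68% of all, and the NF-kappaB core in 5, or 14.3%, against 3.93% of all. ISRE matches stood in promoters of members on both sides of the control, for example Rsad2 and Ifit3 on the higher side and Ifi44, Oas1b and Gbp5 on the lower. All 3 chemokine promoters held the NF-kappaB core, whereas 0 of 16 type I effector promoters did. A match describes letters in this window and is not evidence of binding.

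**Figure D2:**
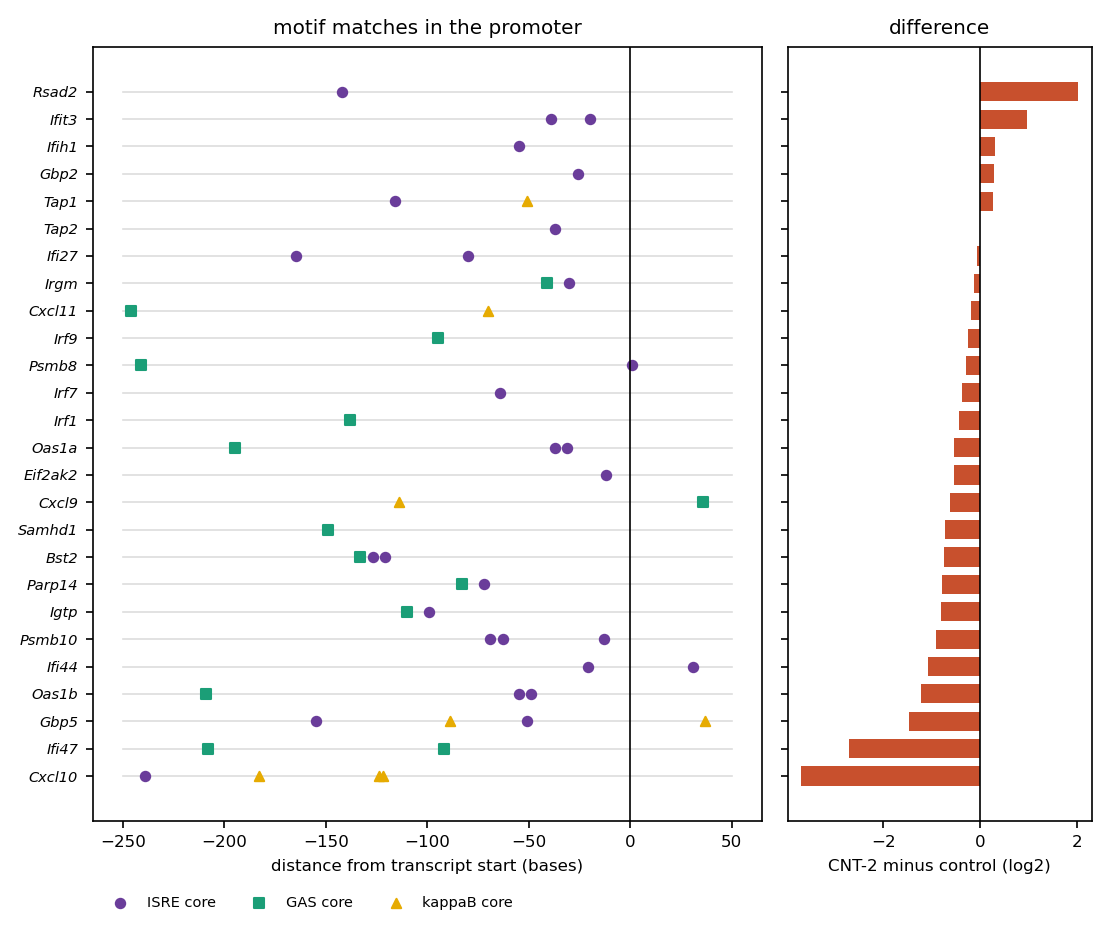
Left, positions of ISRE (purple circles), GAS (green squares) and NF-kappaB (kappaB, yellow triangles) core matches in bases from the transcript start, for measured members with any match. Right, CNT-2 minus control (log2), by which the genes are ordered from highest to lowest. ISRE matches occur from Rsad2 at 2.03 down to Cxcl10 at -3.70.

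Usp18 removes the ubiquitin-like protein ISG15 from its targets and dampens signalling from the type I interferon receptor. Its 2 probes read 1.08 and 0.79 in CNT-1, 2.72 and 2.29 in CNT-2, and 0.19 and 0.15 in the control. Both probes were thus highest in CNT-2, in between in CNT-1 and lowest in the control. The difference from control was 0.76 ± 0.18 in CNT-1 and 2.33 ± 0.28 in CNT-2 (probe SD, 2 probes). Rsad2, which encodes the antiviral enzyme viperin, read 0.37 and 0.21 in CNT-1, 2.35 and 1.96 in CNT-2, and 0.10 and 0.14 in the control. CNT-2 stood apart for this gene, with a difference of 2.03 ± 0.30, while CNT-1 lay at 0.17 ± 0.14 (probe SD, 2 probes), close to the spread between its probes. Oasl, a relative of the oligoadenylate synthases, read 0.97 in CNT-1, 1.59 in CNT-2 and 0.21 in the control, a difference of 0.76 and 1.39 on 1 probe. These 3 differences were 0.75 for Usp18, 0.83 for Rsad2 and 0.04 for Oasl in CNT-2 under quantile normalization. This step gives all columns the same distribution, although their 75th percentiles over gene probes were 0.075 in the control and 0.513 in CNT-2. Over all genes it took the count at least 2-fold higher in CNT-2 from 1616 to 733. In the control, 1 probe each of Usp18 and Rsad2 was background-like, meaning within 0.02 of the negative-control probe there. Because values are centred per probe, here and below this label does not show that a signal was low. It applied to 14.5% of gene probes. Without those 2 probes the CNT-2 differences were 2.53 for Usp18 and 2.24 for Rsad2.

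Ifit3, a protein that binds viral RNA complexes, was on the same side without reaching 2-fold. It read 0.86 in CNT-1, 0.98 in CNT-2 and 0.02 in the control. Its difference of 0.84 was the highest above control among the members in CNT-1 and passed 2-fold, at 1.11, under quantile normalization but under none of the other scalings, and in CNT-2 it was 0.96. Ifit2, of the same family, lay at 0.15 ± 0.08 in CNT-1 and 0.31 ± 0.08 in CNT-2 (probe SD, 2 probes). Isg15, the ubiquitin-like modifier itself, read 0.54 in CNT-1, 0.43 in CNT-2 and 0.12 in the control, so it was slightly above control in both, by 0.41 and 0.31. The CNT-2 differences of Ifit2 and Isg15 turned negative with 75th percentile centring and with quantile normalization. Ifit1, the third family member, read 0.75 in CNT-1, -0.21 in CNT-2 and 0.35 in the control, placing it above control by 0.40 in CNT-1 and below it at -0.56 in CNT-2. Its control value lay farther from 0 than those of 96.9% of gene probes, so the control itself was off the baseline here.

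Of the 20 measured type I effectors 14 lay below the control in CNT-2, Ifit1 among them. Mx2, a dynamin-like GTPase, read -0.40 in CNT-1, -1.41 in CNT-2 and -0.04 in the control, a difference of -0.37 and -1.38. The related Mx1, whose probe was background-like in the control, was at -0.09 in CNT-1 and -0.39 in CNT-2. Ifi44, a protein of unsettled function, was at -0.29 ± 0.01 in CNT-1 and -1.07 ± 0.11 in CNT-2 (probe SD, 3 probes), and all 3 of its probes were lowest in CNT-2, between -1.14 and -0.90. Oas1b, an oligoadenylate synthase family member, read -0.92 in CNT-1, -1.04 in CNT-2 and 0.17 in the control, so that both nanotube columns were lower by similar amounts, -1.09 and -1.21. Its single probe was background-like in the control, while the negative-control probe itself shifted by -0.27 in CNT-1 and by -0.10 in CNT-2. Oas1a was at -0.14 in CNT-1 and -0.54 in CNT-2, and cross-hybridisation between these related genes was not tested. Of the 9 members past 2-fold in CNT-2, 3 stayed past it under every scaling, namely Cxcl10, Ifi47 and Oas1b. Oas1b did so on its single background-like probe, while Usp18 and Rsad2 fell below 2-fold under quantile normalization only.

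The lower effectors that did not pass 2-fold as deposited are given together. Bst2, or tetherin, which holds budding virus at the cell surface, was at -0.51 ± 0.02 in CNT-1 and -0.75 ± 0.05 in CNT-2. Samhd1, which depletes nucleotides needed for reverse transcription, was at -0.03 ± 0.14 in CNT-1 and -0.73 ± 0.22 in CNT-2. Eif2ak2, the kinase PKR that halts translation on sensing double-stranded RNA, was at -0.08 ± 0.04 in CNT-1 and -0.54 ± 0.06 in CNT-2, and Parp14, an ADP-ribosyltransferase, at -0.21 ± 0.07 and -0.79 ± 0.13 (probe SD, 2 probes each). These 4 genes had 2 probes each that pointed the same way in CNT-2. Its relative Parp9 was at -0.27 in CNT-1 and -0.36 in CNT-2, Ifi35 at -0.26 and -0.61, and Trim25, a ubiquitin ligase that activates RIG-I, at -0.36 and -0.58. Ifi27 was nearest to the control at -0.05 and -0.06. The probe of Ifi27 and 1 probe of Eif2ak2 were background-like in the control. With 75th percentile centring 5 of these genes passed 2-fold in CNT-2. They were Bst2 at -1.19, Samhd1 at -1.17, Parp14 at -1.23, Ifi35 at -1.04 and Trim25 at -1.02. That centring shifted all CNT-2 differences downward alike, and 2297 of 15924 genes were then at least 2-fold lower, against 1045 as deposited. Parp14 alone of these genes also passed 2-fold with spike-in centring, at -1.02, where 1565 genes were at least 2-fold lower.

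The RNA sensors Ifih1, also known as MDA5, and Dhx58, also known as LGP2, lay slightly above control. Ifih1 was at 0.02 in CNT-1 and 0.30 in CNT-2, both turning negative with 75th percentile centring. Dhx58 was at 0.06 ± 0.01 in CNT-1 and 0.46 ± 0.04 in CNT-2 (probe SD, 2 probes). Among the transcription factors Stat2 was the highest, with 0.50 in CNT-1, 1.02 in CNT-2 and 0.05 in the control, a difference of 0.45 and 0.97. Irf9, its partner in the type I factor, was at -0.10 in CNT-1 and -0.24 in CNT-2. Irf7, which amplifies type I interferon production, read 0.36 in CNT-1, -0.03 in CNT-2 and 0.34 in the control, a difference of 0.02 and -0.37, and the small CNT-1 value turned negative with 75th percentile centring and quantile normalization. Irf1, a main factor of the interferon gamma response, read -0.17 in CNT-1, -0.44 in CNT-2 and -0.001 in the control. Stat2 was therefore the 1 factor of the 4 that lay above control in CNT-2.

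**Figure D3:**
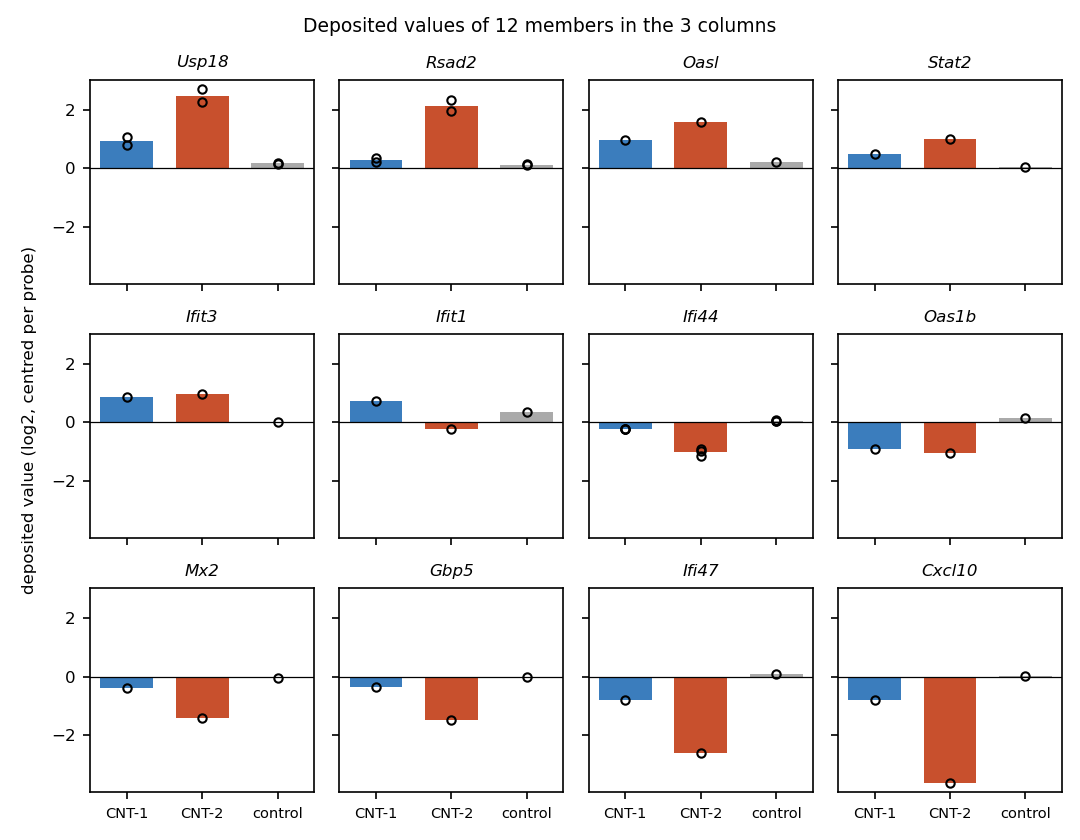
Deposited values (log2, centred per probe, vertical axis) of 12 members in the CNT-1, CNT-2 and control columns. Bars are means over probes and open circles single probes, with 1 column per group and no replicates. CNT-2 reaches 2.72 for a probe of Usp18 and -3.66 for Cxcl10, while control values lie between -0.04 for Mx2 and 0.35 for Ifit1.

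The chemokines Cxcl9, Cxcl10 and Cxcl11 attract activated T cells and NK cells through the receptor Cxcr3. Cxcl10 read -0.80 in CNT-1, -3.66 in CNT-2 and 0.03 in the control. Its CNT-2 difference of -3.70 was the 9th lowest of all 15924 genes and ranged from -4.13 to -2.27 over the scalings, while its CNT-1 difference was -0.84. Cxcl9 read -0.37 in CNT-1, -0.61 in CNT-2 and 0.003 in the control. Cxcl11 read -0.42 in CNT-1, -0.21 in CNT-2 and -0.01 in the control, a difference of -0.41 and -0.19, and the CNT-2 difference turned positive under quantile normalization. All 3 chemokines were below control in both columns, but Cxcl10 alone passed 2-fold, and Cxcl11 was lower in CNT-1 than in CNT-2. In the RefSeq gene order of GRCr8 the 3 genes lie side by side on chromosome 14 with no protein-coding gene between them. Cxcr3, whose probe was background-like in the control, was at -0.26 in CNT-1 and 0.12 in CNT-2.

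The gamma-induced GTPases attack the vacuoles in which microbes live. Ifi47, an immunity-related GTPase, read -0.81 in CNT-1, -2.64 in CNT-2 and 0.07 in the control. Its difference was -0.88 in CNT-1 and -2.71 in CNT-2, where it ranked 48th from the lowest. Gbp5, a guanylate-binding protein that promotes inflammasome assembly, read -0.36 in CNT-1, -1.49 in CNT-2 and -0.03 in the control, and its CNT-2 difference of -1.46 shrank to -0.58 under quantile normalization. Igtp, another immunity-related GTPase, read -0.36 in CNT-1, -0.82 in CNT-2 and -0.02 in the control, a difference of -0.33 and -0.80. Its CNT-2 difference passed 2-fold at -1.24 with 75th percentile centring and at -1.02 with spike-in centring, against 2297 and 1565 of 15924 genes. Irgm was close to the control in both columns, with differences of -0.19 and -0.13. Gbp2 was at -0.04 in CNT-1 and 0.28 in CNT-2, with the CNT-1 sign turning under spike-in centring and the CNT-2 sign under 75th percentile centring and quantile normalization. Closely placed genes thus differed, with Ifi47 and Irgm separated by 1 protein-coding gene on chromosome 10, and Gbp5 and Gbp2 by 2 on chromosome 2. The median over the 5 GTPases was -0.33 in CNT-1 and -0.80 in CNT-2.

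The 5 antigen processing genes had 1 probe each, and none passed 2-fold as deposited in either comparison. Psmb8, Psmb9 and Psmb10 are the catalytic subunits of the immunoproteasome, which makes peptides for display on MHC class I molecules. Psmb10 read -0.23 in CNT-1, -0.92 in CNT-2 and 0.002 in the control. Psmb9 read -0.04 in CNT-1, -0.73 in CNT-2 and 0.01 in the control, and Psmb8 -0.10, -0.30 and -0.001 in the same order. All 3 were lowest in CNT-2. Psmb9 at -1.18 and Psmb10 at -1.36 passed 2-fold there with 75th percentile centring, where 2297 of 15924 genes were at least 2-fold lower. Psmb10 also passed it at -1.14 with spike-in centring, against 1565 of all genes. With each column centred on its median it was at -1.01, against 1230 of all genes. The subunits that Psmb8, Psmb9 and Psmb10 replace in the standard proteasome lay above the control in CNT-2 as deposited. Psmb5 was at -0.003 in CNT-1 and 0.11 in CNT-2, Psmb6 at 0.14 and 0.29, and Psmb7 at 0.09 and 0.51. The CNT-2 values of Psmb5 and Psmb6 fall below control with 75th percentile centring, and that of Psmb5 also with spike-in centring. Tap1 and Tap2 form the transporter that carries peptides into the endoplasmic reticulum. Tap1 was at 0.03 in CNT-1 and 0.27 in CNT-2, both turning negative with 75th percentile centring, and Tap2 at -0.10 and -0.006. Over all genes with several probes, the median probe SD of a difference in CNT-2 was 0.19. On chromosome 20 the order was Tap2, Psmb8, Tap1 and Psmb9 without a protein-coding gene between them, so differences of -0.74 and 0.27 stood side by side in CNT-2.

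Compared by role, the type I effectors had a median of -0.09 in CNT-1 and -0.54 in CNT-2. The 13 chemokines, GTPases and antigen processing genes together had a median of -0.23 in CNT-1 and -0.61 in CNT-2. In CNT-2, 3 of 20 measured effectors and 0 of 13 gamma-associated genes were at least 2-fold higher, against 10.1% of all genes. Under quantile normalization 0 members of either kind were, against 733 of 15924 genes, down from 1616 as deposited. On the lower side 3 of each passed 2-fold, against 6.56% of all genes. Effectors ranged from -1.38 to 2.33 and the gamma-associated genes from -3.70 to 0.28. With Usp18, Rsad2 and Oasl included, the mean over effectors in CNT-2 was -0.11, much nearer 0 than their median. The groups hold between 2 and 20 measured genes and no difference between them was tested.

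**Figure D4:**
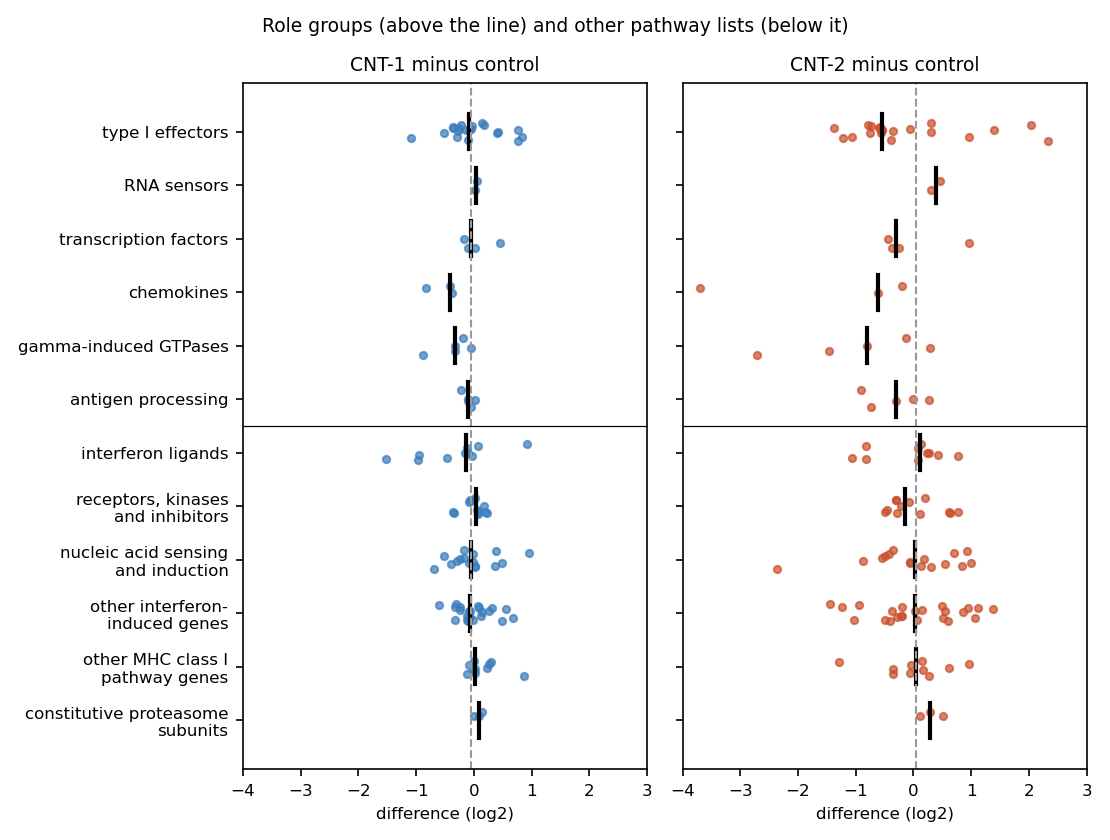
Difference from control (log2, horizontal axis) for CNT-1 on the left and CNT-2 on the right, with 1 point per gene. Black bars are list medians and the dashed line is the median of all genes. In CNT-2 the GTPase median lies at -0.80 and the constitutive proteasome median at 0.29, while ligands and other interferon-induced genes lie near the dashed line.

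Set directly against each other, CNT-2 and CNT-1 differed by at least 2-fold for 6 members. Rsad2 at 1.86 and Usp18 at 1.57 were higher in CNT-2, 2 of 39 members against 9.32% of all genes. Cxcl10 at -2.86, Ifi47 at -1.83, Gbp5 at -1.13 and Mx2 at -1.01 were lower, 4 of 39 members against 4.65% of all genes. The median over members was -0.22, against 0.15 for all genes, and 66.7% of members were lower in CNT-2, against 36.7% of all genes. Ifit1, at -0.96, came next on the lower side. Several members lay near 0 in this comparison. They were Ifi27 at -0.01, Irgm at 0.06, Parp9 at -0.09, Tap2 at 0.10 and Isg15 at -0.11. Ifit3 at 0.12, Oas1b at -0.12, Irf9 at -0.14 and Ifit2 at 0.16 followed. All were within the median probe SD of 0.17, which does not measure variation between columns. The single probes of Oas1b and Ifi27 were background-like in the control.

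Ligands and receptors of the pathway were also read. Of 10 measured ligands or inducing cytokines 0 were at least 2-fold higher and 1 lower in each comparison with control. Over all genes 1.16% were higher and 2.15% lower in CNT-1, and 10.1% and 6.56% in CNT-2. Ifnb1, the first type I interferon made in many cells, was at 0.92 in CNT-1 and 0.12 in CNT-2, and Ifng at -0.12 and 0.08 on a probe that was background-like in the control. The alpha interferons Ifna2, Ifna4 and Ifna5 were at -0.03, -0.97 and -0.95 in CNT-1 and at 0.77, 0.08 and 0.43 in CNT-2. Ifnk was at -1.51 in CNT-1 and -0.83 in CNT-2, and Ifne, background-like in the control, at -0.10 and 0.23. The control itself was off the baseline for Ifnk, at 0.54, and for Ifna5, at 0.39. Il12b, a subunit of interleukin 12, which induces interferon gamma, was at -0.46 in CNT-1 and -1.06 in CNT-2, but read 1.10 in the control, far from the baseline. Its partner Il12a, background-like in the control, was at -0.16 and 0.26, and Il18, which acts with interleukin 12, at 0.06 ± 0.02 and -0.82 ± 0.21 (probe SD, 2 probes). The receptor chain Ifnar1 was at 0.20 ± 0.07 in CNT-1 and 0.78 ± 0.26 in CNT-2 (probe SD, 2 probes), and the interferon gamma receptor chains Ifngr1 and Ifngr2 were at 0.05 and 0.07 in CNT-1 and at -0.45 and 0.61 in CNT-2. None of 12 measured receptors, kinases and inhibitors passed 2-fold in either comparison.

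Further lists of the pathway were mixed. Of 16 measured sensing and induction genes, Tlr4, the endotoxin receptor, alone passed 2-fold in CNT-2, at -2.37 against -0.69 in CNT-1. Among 23 other interferon-induced genes 3 were at least 2-fold higher in CNT-2, against 10.1% of all genes. They were the chemokine Ccl5 at 1.38, Herc6 at 1.12 and Ube2l6 at 1.06. The same number were lower, against 6.56% of all genes. Those were the death ligand Tnfsf10 at -1.45, the GTPase Gbp4 at -1.24 and Ddx60 at -1.03. In CNT-1 these 6 ranged from -0.33 for Gbp4 to 0.68 for Ube2l6, and 0 of the 23 passed 2-fold. Their median was 0.03 in CNT-2, against -0.39 over the members. Of 10 measured MHC class I pathway genes, Cd74, which belongs to class II presentation, was lower in CNT-2 at -1.29 and at 0.29 in CNT-1.

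Markers of other cell types were read in the same columns. All samples are labelled as the single line NR8383, and values without levels cannot show whether other cells were present. There were 34 measured markers of T and NK, B, plasmacytoid dendritic, neutrophil, epithelial, endothelial and fibroblast cells. Of these, 3 were at least 2-fold higher and 5 lower in CNT-2, with a median of -0.12. Over all genes 10.1% were higher and 6.56% lower there, with a median of 0.04. In CNT-1, 1 marker was higher and 2 were lower, with a median of -0.21. The CNT-1 shares over all genes were 1.16% and 2.15%, with a median of -0.04. Among the 3 plasmacytoid markers, Siglech, background-like in the control, was at -0.25 in CNT-1 and -0.05 in CNT-2, Tcf4 at -0.45 and -1.73, and the third is the member Bst2. Their part in the members' values was not tested. The 10 spike-in probes, which report added RNA, shifted by -0.05 ± 0.07 in CNT-1 and by 0.23 ± 0.10 in CNT-2 (SD over probes). The members' median in CNT-2 was -0.62 with spike-in centring.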

How the data were processed

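NR8383 cells in 3 groups, CNT-1, CNT-2 and control, were profiled on 1-colour Agilent arrays, per the labels' protocols. The submitters' processing notes name Agilent Feature Extraction 10.7.3.1 as the scan reader. The values deposited by the authors are presumed to be on a log2 scale, centred per probe. This was read from both signs and column medians near 0 in a table of 41103 probes, and the natural log was not distinguished. The sources used here do not state scaling, baseline, direction or pooling of arrays. Depth has no meaning for arrays, and their number limits the precision.

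Of the probes 20932 had 1 symbol, 0 had several and 20171 had none. Accessions and synonyms in the RefSeq table of GRCr8 named 17415 and 398 probes, 3113 symbols were current and 6 were kept as given. Differences between columns were averaged over the probes of a gene in Python 3.11.15 with pandas 2.3.3, and tested on simulated data with known differences. Counts use 1 log2 unit. There is 1 column per group, so no test was made. By the rule for named genes, per-column values go to members past 2-fold against control and to chemokines, GTPases, antigen processing genes and factors. Ligands, receptors and constitutive proteasome subunits are named whatever their value, and other pathway genes when past 2-fold, up to 8 a list. The members and lists were chosen with earlier results of these data known. Alternatives were other scalings, probe summaries, probe filters, thresholds, probe names and list summaries.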

Additional observations from a re-analysis of the deposited data

How the results depend on the processing

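No paired analysis was possible because each group had 1 column. Fold thresholds, scaling and filters moved sizes and counts, while the medians of all members and of the chemokine, GTPase and antigen processing groups kept their negative sign in both comparisons with control under every alternative that gave a value. With 75th percentile centring the CNT-2 medians against control were -0.83 for all members and -0.98 for type I effectors. They were -1.05 for chemokines, -1.24 for GTPases and -0.74 for antigen processing. At that setting 15 of 39 members were at least 2-fold lower, against 2297 of 15924 genes. Against CNT-1 the median was then -0.60, with 9 members lower. With spike-in centring these medians were -0.62, -0.77, -0.84, -1.02 and -0.53, and -0.49 against CNT-1. Over all genes, quantile normalization gave 601 higher and 709 lower in CNT-1, against 184 and 342 as deposited, and 401 and 369 between the nanotubes, against 1484 and 741. That last split was 768 and 1563 with 75th percentile centring and 915 and 1245 with spike-in centring. Higher and lower counts over all genes were 614 and 1024 in CNT-1, 3220 and 2193 in CNT-2, and 3264 and 1695 between the nanotubes at 1.5-fold. At 3-fold they were 44 and 82, 695 and 349, and 558 and 203 in that order. Genes with 2 or more probes gave 23 and 36, 342 and 207, and 253 and 135. Quantile normalization gave 1 member higher and 2 lower in CNT-1, and 0 higher and 2 lower between the nanotubes. In CNT-2 it gave 0 members higher and 5 lower, against 733 and 664 of 15924 genes. Ifit1 at -1.14 and Irf7 at -1.04 were then past 2-fold on the lower side, while Gbp5, Mx2 and Ifi44 were not. The same step moved the GTPase median to -0.16 in CNT-1 and to -0.32 in CNT-2, and the CNT-2 chemokine median to -0.31. With genes of 2 or more probes only, 9 members remained and 0 were lower in CNT-1, 1 in CNT-2 and 0 between the nanotubes. That setting gave no value for chemokines, GTPases or antigen processing. Leaving out background-like probes, which removes Oas1b, left 0 of 36 members lower in CNT-1, against 366 of 13715 genes. At 1.5-fold 3 members were higher and 3 lower in CNT-1, 5 higher and 14 lower in CNT-2, and 9 lower between the nanotubes. At 3-fold 0 were lower in CNT-1, 2 were lower in CNT-2, and 1 was higher and 2 lower between the nanotubes. Means in place of medians gave -0.54 and -1.50 for chemokines in CNT-1 and CNT-2 and -0.11 for effectors in CNT-2.

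The RNA sensor medians reversed with 75th percentile centring, to -0.017 in CNT-1 and -0.056 in CNT-2. The transcription factor median in CNT-1 reversed to 0.0054 with spike-in centring and to 0.049 as a mean. Both of the following alternatives were added after seeing the data. Without subtracting the control, 0 members were lower in CNT-1, against 247 higher and 197 lower over all genes, the effector median reversed there to 0.023 and moved in CNT-2 to -0.29, and the factor median in CNT-1 reversed to 0.19. With probes within 0.1 of 0 in the control only, 0 members were lower in CNT-1 and 0 higher in CNT-2, against 118 lower in CNT-1 and 1274 higher in CNT-2 of 11731 genes (128 were higher in CNT-1). This filter removes every probe of Usp18, Rsad2, Oasl and Oas1b, so both counts of 0 follow from it. There the medians of all members were -0.19 and -0.59, the effector median in CNT-1 was -0.24 and the GTPase median in CNT-2 -1.13. The factor medians then reversed to 0.14 and 0.27 on 2 genes. Except where fewer genes or probes entered, the cause was not tested. The number of columns and the missing signal levels limit all values.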

Other observations

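Genes of the ISG15 modification system, grouped after their values were seen, lay on different sides of the control. In CNT-2 the conjugating enzyme Ube2l6 was at 1.06, the ligase gene Herc6 at 1.12 and the deconjugating enzyme Usp18 at 2.33, while the modifier Isg15 was at 0.31. In CNT-1 the values were 0.68 for Ube2l6, 0.09 for Herc6, 0.76 for Usp18 and 0.41 for Isg15. Trim25, which has also been described as an ISG15 ligase, was at -0.58 in CNT-2 and -0.36 in CNT-1.

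Values in CNT-2 of members placed close together on a chromosome, other than those given above, were as follows. Ifit2, Ifit3 and Ifit1 follow each other on chromosome 1, with 0 protein-coding genes between the first pair and 1 before Ifit1, and lay at 0.31, 0.96 and -0.56. Mx1 and Mx2 on chromosome 11, with 1 gene between them, were at -0.39 and -1.38. Parp9 and Parp14 on the same chromosome, also with 1 gene between them, were at -0.36 and -0.79. Oas1a and Oas1b on chromosome 12, with 2 genes between them, were at -0.54 and -1.21. The order comes from RefSeq and no test was made.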
